A study of Mus musculus with 4 samples.

Results

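Matricellular proteins are secreted into the extracellular matrix, where they do not build fibres but bind collagens, growth factors, proteases and cell-surface receptors and so modify how cells sense the matrix. In the adult heart most of them are made at low levels at rest, chiefly by fibroblasts, and they are known to rise with injury and with haemodynamic load. The 10 genes described here were *Postn*, *Cilp*, *Thbs1*, *Thbs2*, *Thbs3*, *Thbs4*, *Comp*, *Tnc*, *Spp1* and *Sparc*, out of 21636 genes with a named probe. They were chosen from the known matricellular proteins with their fold changes on these same arrays already known, so the changes after surgery below are a description of the group and carry no test.

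The data were 4 one-colour arrays of whole mouse heart RNA. They came from male C57BL/6J hearts after transverse aortic constriction (TAC), a banding of the aortic arch that loads the left ventricle, or after a sham operation, and the question was how transcription changes in the hypertrophic and the heart failure phase. The groups were sham at 2 weeks, TAC at 2 weeks, sham at 8 weeks and TAC at 8 weeks, with mice labelled as 10 weeks old at 2 weeks and 16 weeks old at 8 weeks. Each group was 1 array of RNA mixed from several mice, so no spread between animals could be measured and no p-value is given. The study's methods give an age at surgery that these labelled ages do not allow, and the labels name no genotype.

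Signals are given as multiples of the 75th percentile of the same array over 55681 probes. Levels of different probes are put together only in list sums and in the choice of each gene's brightest probe. A gene was called up when the signal of its brightest probe on the TAC array stood well above background and at over 2-fold that of the matching sham array, and down in the mirror case. As a yardstick of measurement noise, the log2 ratio of 2 spots of one probe on one array had an SD of 0.0944 for spots over the 75th percentile, 0.157 for spots from 0.25 to 1 of it, 0.319 for dimmer spots still well above background, and 0.615 for spots not well above background. This yardstick holds neither the difference between arrays nor that between mice. The only arrays of the same operation are sham at 8 weeks and sham at 2 weeks. These also differ in age and in time after surgery, so their difference does not measure either spread alone. All 4 arrays lay on 1 slide and were read in 1 scan, no spot was saturated, and between 54.7% and 58.5% of probes were well above background. All 8 cardiomyocyte markers examined, among them *Myh6* and *Tnnt2*, were well above background on every array, as the heart label requires.

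At 2 weeks 4 of the 10 genes were up (*Cilp*, *Postn*, *Thbs1* and *Thbs4*), beside 1.71% of all genes. At 8 weeks 5 were up, the same 4 and *Comp*, beside 2.32% of all genes, and the 4 genes up at both times stood beside 0.555% of all genes. None of the 10 was down at either time, where 0.841% of all genes were down at 2 weeks and 1.45% at 8 weeks. Since the members were picked for such changes, nothing is read from these shares. The median log2 change over the 10 genes was 1.16 at 2 weeks and 1.62 at 8 weeks, against -0.05 and -0.08 over all genes. The 10 include *Tnc* and *Spp1*, which lay at background, and the 8-week value rests in part on the background ratio of *Spp1*. Over the 8 genes that were well above background on all 4 arrays the median was 1.16 at 2 weeks and 1.96 at 8 weeks, and 7 of these 8 were higher on both TAC arrays than on both sham arrays, the exception being *Thbs2*. Of all genes measured on the 4 arrays, 23.8% were higher on both TAC arrays than on both sham arrays.

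**Figure D1:**
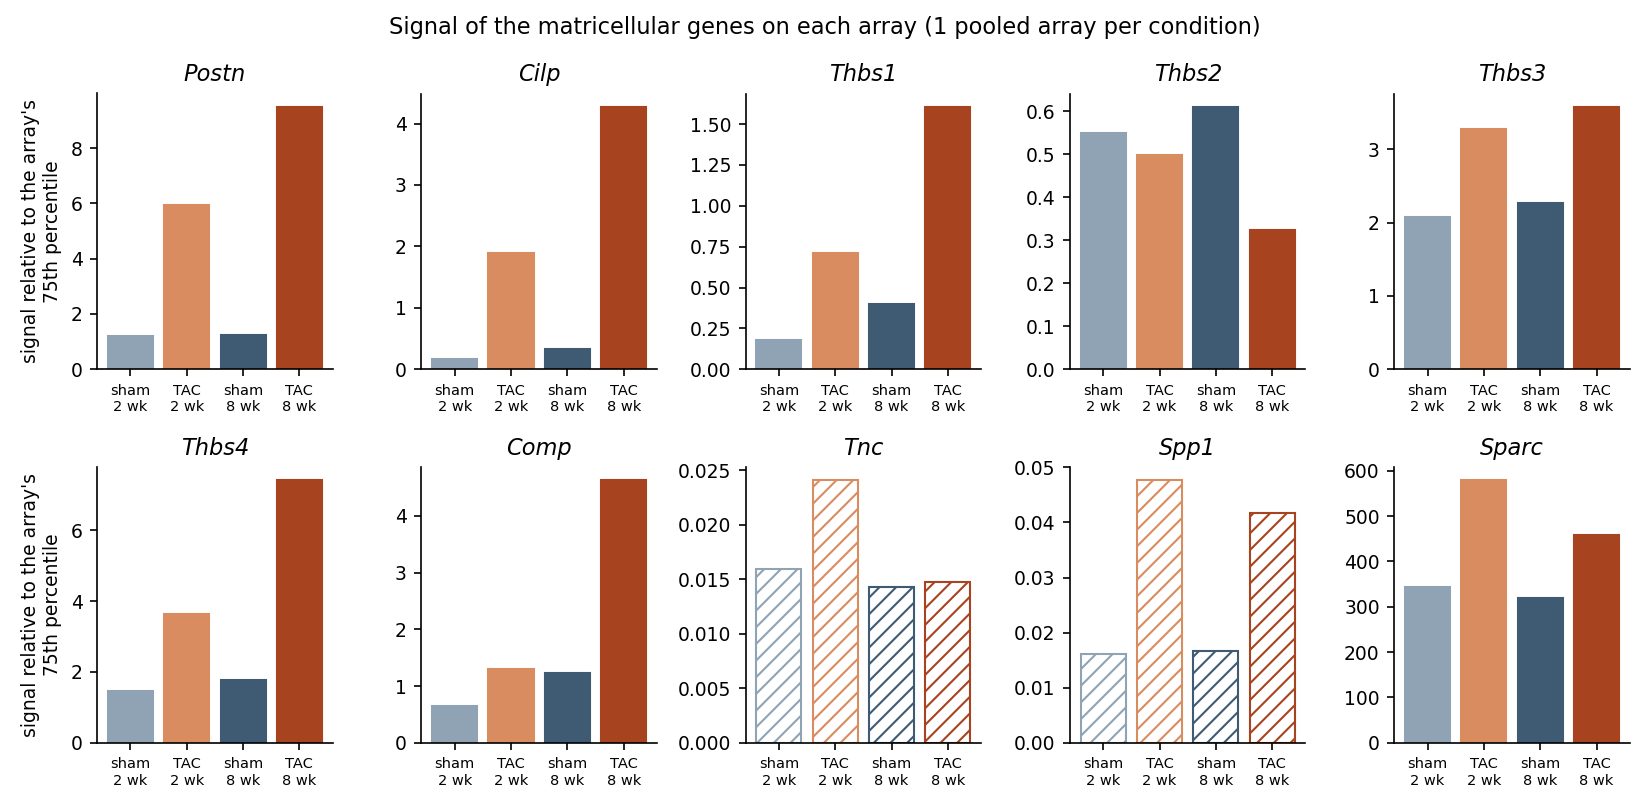
Signal of each of the 10 genes on each array (y axis, multiples of the array's 75th percentile, own scale per panel) for sham and TAC at 2 and 8 weeks (x axis). Each bar is the brightest probe on 1 pooled array, hatched where it was not well above background, and *Postn* reads 1.21, 5.95, 1.25 and 9.50 from left to right.

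The promoter sequences of 4 members are shown because they cover the genes with the largest rise (*Cilp* and *Postn*), a thrombospondin that was up at both times (*Thbs4*) and the only measured member that was lower after TAC (*Thbs2*). Each is the 120 bases before an annotated start in RefSeq (GRCm38.p6), written 5′ to 3′ on the gene's strand. Capitals mark TATAA in *Postn* and *Cilp* and the GC box GGGCGG, or its reverse complement, in *Thbs4*.
Postn, chr3:54360987-54361106, plus strand: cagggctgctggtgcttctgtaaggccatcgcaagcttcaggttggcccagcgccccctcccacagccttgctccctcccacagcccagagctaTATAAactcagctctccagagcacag
Cilp, chr9:65265060-65265179, plus strand: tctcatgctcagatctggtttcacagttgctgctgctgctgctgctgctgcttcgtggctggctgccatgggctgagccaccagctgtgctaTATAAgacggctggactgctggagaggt
Thbs4, chr13:92794819-92794938, minus strand: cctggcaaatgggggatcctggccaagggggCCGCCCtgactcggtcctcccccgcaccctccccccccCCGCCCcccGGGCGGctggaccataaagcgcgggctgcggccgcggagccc
Thbs2, chr17:14694263-14694382, minus strand: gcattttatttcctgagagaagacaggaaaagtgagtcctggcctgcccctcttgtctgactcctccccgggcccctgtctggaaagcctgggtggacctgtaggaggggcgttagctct

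Of the 10 genes, 8 had an entry in the promoter table, with 11 annotated starts, and *Thbs1* and *Comp* had none. The letters TATAA, the core of a TATA box, began 26 bases before the *Postn* start shown and 28 bases before that of *Cilp*, and 27 bases before one of the *Tnc* starts. On the coding strand and beginning 20 to 40 bases before the start, TATAA was present at 3 of the 11 member starts and at 3.52% of 32851 promoters. A second annotated *Postn* start, upstream of the one shown, had no TATAA in its 250 bases. *Thbs4* held 3 GC boxes, at 89, 51 and 42 bases before its start, in a stretch with 70.8% G and C over 250 bases, where the median of all promoters was 52.4%. *Thbs3* held 1 GC box, 21 bases before its start, and *Tnc* held 1, lying 246 bases before one of its annotated starts and 167 before the other, while 32.7% of all promoters held at least 1 on either strand. Searched on both strands, neither the AP-1 word TGANTCA, held by 6.75% of promoters, nor the CArG box, held by 1.47%, was found in the 250 bases of a member. The motifs were chosen after the sequences had been read, and a match in letters is not a binding site.

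Periostin, encoded by *Postn* (chr3:54359267-54391041, RefSeq GRCm38.p6), binds collagen and integrins and is a standard marker of activated cardiac fibroblasts. Its signal was 1.21 in the sham pool and 5.95 in the TAC pool at 2 weeks, and 1.25 and 9.50 at 8 weeks. The sham arrays lay close together, at a log2 difference of 0.05, and both TAC arrays lay well above them. The change was 4.90-fold at 2 weeks (log2 2.29) and 7.59-fold at 8 weeks (log2 2.92), which ranked *Postn* 9th and 10th of 14239 genes measured on all 4 arrays. The lower TAC array was still 4.75-fold the higher sham array.

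*Cilp* (chr9:65265180-65280614) encodes cartilage intermediate layer protein, a matrix protein known to bind TGF-beta. It had the largest rise of the members, from 0.174 to 1.90 at 2 weeks and from 0.336 to 4.27 at 8 weeks. These are 10.9-fold (log2 3.45) and 12.7-fold (log2 3.67), the 1st and the 4th largest changes among the measured genes. The sham pools themselves differed 1.93-fold, with the 8-week pool higher. Both TAC arrays were nevertheless above both sham arrays, by 5.66-fold for the closest pair.

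The thrombospondins fall into a subgroup that forms trimers and activates latent TGF-beta or binds CD36 and CD47 (*Thbs1* and *Thbs2*) and a pentameric subgroup (*Thbs3*, *Thbs4* and *Comp*). In the first subgroup the pair of genes moved apart. *Thbs1* (chr2:118111876-118127133), an activator of latent TGF-beta, read 0.181 in sham and 0.714 in TAC at 2 weeks, and 0.398 and 1.61 at 8 weeks. Both times gave nearly the same change, 3.95-fold and 4.04-fold (log2 1.98 and 2.01). *Thbs1* was also the only member over 2-fold between the sham pools, 2.20-fold higher at 8 weeks, in a comparison where 1.16% of all genes were up and 0.703% down. Between the closest pair, TAC at 2 weeks and sham at 8 weeks, the rise was 1.79-fold, below the 2-fold threshold. *Thbs2* (chr17:14665500-14694262), which limits matrix metalloproteinase activity and angiogenesis, read 0.548 in sham and 0.498 in TAC at 2 weeks, and 0.611 and 0.323 at 8 weeks. The 2-week difference, log2 -0.14, was smaller than the spot SD of 0.157 for that brightness. The 8-week level was 1.89-fold lower after TAC (log2 -0.92), just short of the threshold for a call, and larger than the log2 difference of 0.15 between the sham pools.

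Among the pentameric thrombospondins, *Thbs4* (chr13:92751586-92794818) is known as a stress-induced protein of muscle and tendon that acts both in the matrix and in the endoplasmic reticulum. It read 1.46 in sham and 3.62 in TAC at 2 weeks, and 1.78 and 7.42 at 8 weeks. The change grew from 2.49-fold (log2 1.32) to 4.17-fold (log2 2.06). The TAC pools differed 2.05-fold and the sham pools 1.22-fold between the times. *Comp* (chr8:70373548-70382066), cartilage oligomeric matrix protein, helps to assemble collagen fibrils in cartilage and tendon. Its signal was 0.647 in sham and 1.29 in TAC at 2 weeks, and 1.23 and 4.63 at 8 weeks. At 2 weeks it missed the threshold by the narrowest margin (1.999-fold) and at 8 weeks it was 3.78-fold higher (log2 1.92). The 2-week TAC array was only 1.05-fold above the 8-week sham array, a difference within the spot SD, and the sham pools differed 1.90-fold, so the 2-week change of *Comp* was about as large as the difference between the sham pools. *Thbs3* (chr3:89215180-89226841), whose product is found in bone, tendon and muscle, read 2.07 in sham and 3.28 in TAC at 2 weeks, and 2.27 and 3.58 at 8 weeks. Both arrays after TAC were higher by the same factor, 1.58-fold (log2 0.66 at each time), and a second probe gave log2 0.74 and 0.77.

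**Figure D2:**
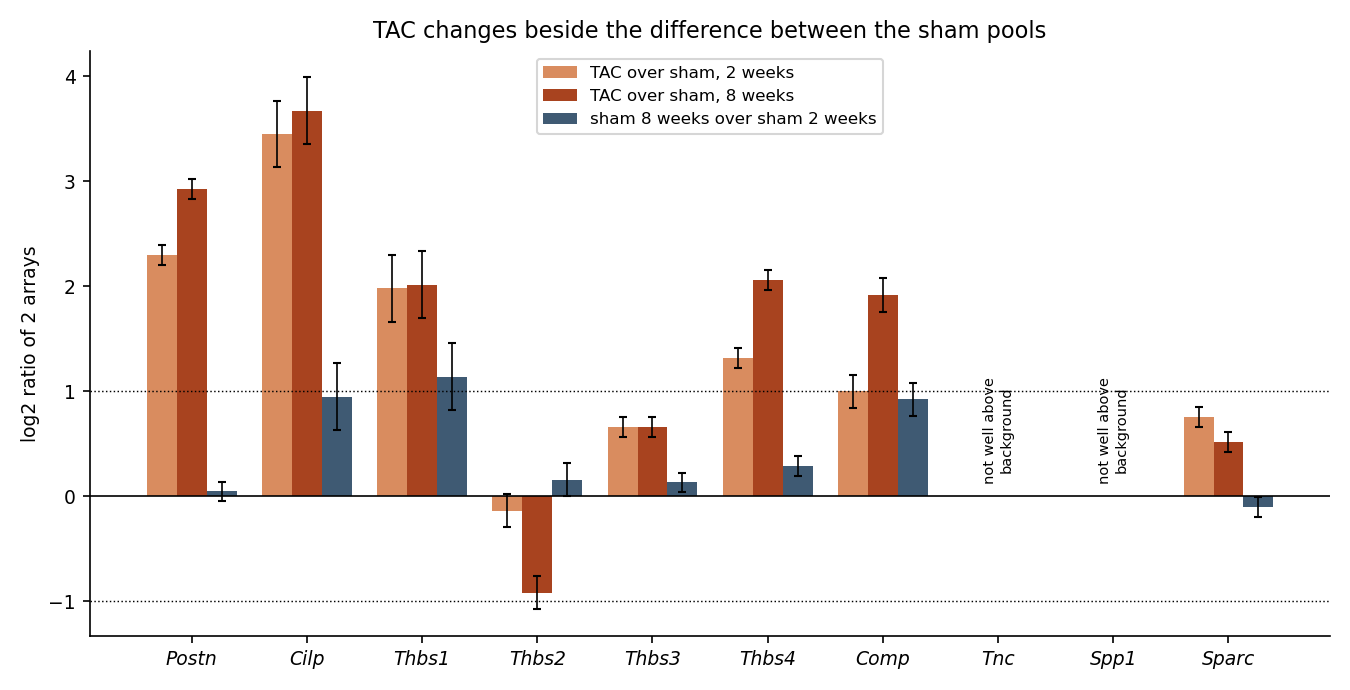
Log2 ratio of TAC over sham at 2 weeks and at 8 weeks, and of sham at 8 weeks over sham at 2 weeks (y axis), for the 8 measured genes (x axis), with *Tnc* and *Spp1* marked as not well above background and drawn without bars. Error bars show the spot noise (SD of the log2 ratio of 2 spots) at the brightness of the dimmest array. It was taken from probes printed several times, since each member probe was 1 spot. Dotted lines mark 2-fold, and *Thbs1*, *Cilp* and *Comp* show sham differences of 1.14, 0.95 and 0.92.

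*Sparc* (chr11:55394159-55420080), a collagen-binding protein that counters cell adhesion and is abundant in resting tissue, was already far above the 75th percentile in sham hearts. Its signal was 343 in sham and 579 in TAC at 2 weeks, and 320 and 458 at 8 weeks. Both TAC arrays were above both sham arrays, with a smaller gap at the later time, 1.69-fold (log2 0.76) and 1.43-fold (log2 0.52). The second probe of the gene gave log2 0.92 and 0.71, so the probes shared the direction and the order of the times. Neither passed 2-fold.

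*Tnc* (chr4:63959785-64047015), which encodes tenascin-C, an anti-adhesive protein of development and wounds, was not well above background on any array with either of its 2 probes. *Spp1* (chr5:104435111-104441053), which encodes osteopontin, a ligand of CD44 and of the alpha-v integrins made by macrophages among other cells, was likewise not well above background on any array. The scaled signals of *Spp1* were 0.0161 in sham and 0.0477 in TAC at 2 weeks, and 0.0167 and 0.0417 at 8 weeks. Those of the brighter *Tnc* probe were 0.0159, 0.0241, 0.0143 and 0.0147 in the same order. Because both sides were at background, no fold change of their own is given for these genes, and the arrays do not measure whether they changed.

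Between 2 and 8 weeks the members did not move as one. Of the 8 measured genes, 5 had a larger log2 change at 8 weeks, a property of 51.2% of measured genes. The gain was 0.92 for *Comp*, 0.74 for *Thbs4*, 0.63 for *Postn*, 0.22 for *Cilp* and 0.03 for *Thbs1* on the log2 scale. Only the first 3 of these gains exceeded the spot SD for the brightness of the gene. That SD came from other probes, as each member probe was 1 spot. It holds for 1 ratio of 2 spots, while a gain compares 2 ratios and carries more noise. For *Comp* the sham pools also differed by 0.92. The changes of *Thbs3* and *Sparc* shifted by -0.01 and -0.24, and that of *Thbs2* by -0.78.

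**Figure D3:**
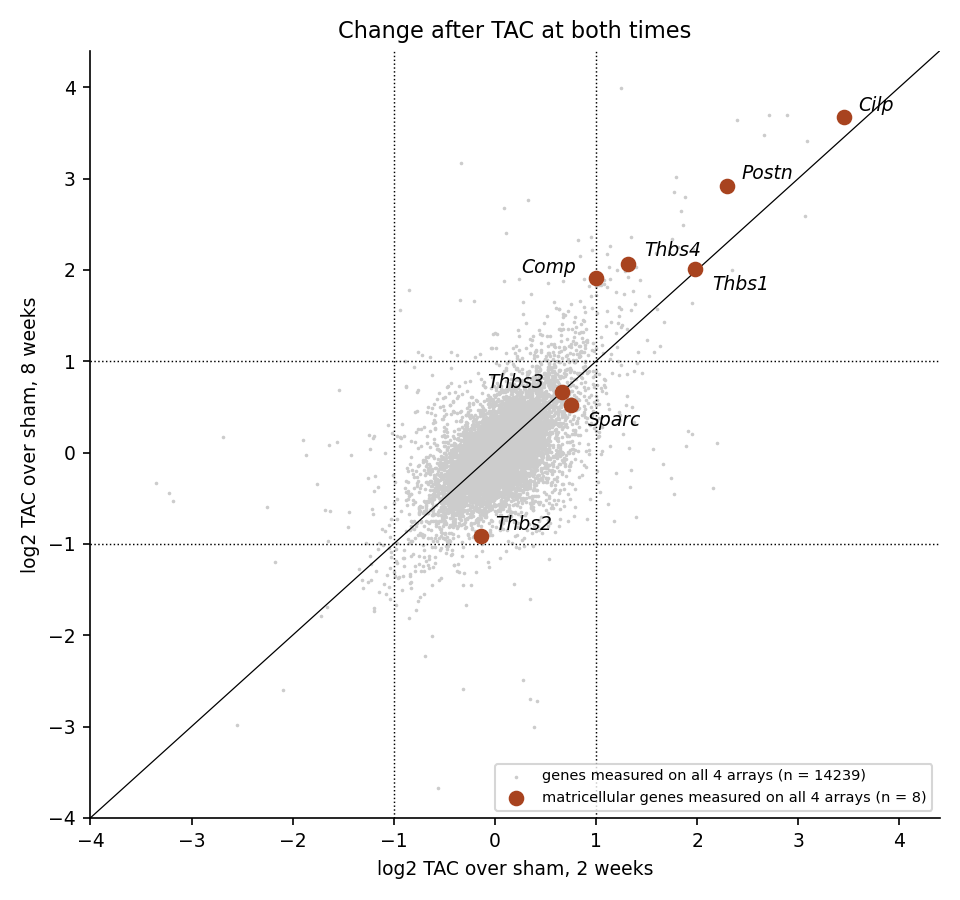
Log2 change after TAC at 2 weeks (x axis) and at 8 weeks (y axis) for 14239 genes well above background on all 4 arrays (grey) and the 8 matricellular genes among them (labelled). Dotted lines mark 2-fold and the solid line equal changes, and *Comp*, *Thbs4* and *Postn* lie above that line while *Thbs2* lies below 0 at both times.

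The 5 genes whose 4 log2 values, each centred on its own mean, lay nearest to those of *Postn* were *Col8a1*, a chain of collagen VIII, *Ankrd2*, a stretch-responsive ankyrin repeat protein of muscle, *Timp1*, an inhibitor of matrix metalloproteinases, *Nppa*, the atrial natriuretic peptide gene, and *Aqp8*, an aquaporin. Their Euclidean distances from *Postn* over the 4 arrays ran from 0.355 to 0.513 log2 units. The nearest, *Col8a1*, was 3.68-fold higher at 2 weeks and 6.97-fold at 8 weeks. The nearest member was *Thbs4*, which came 21st at a distance of 0.971, followed by *Thbs1* in place 27 and *Cilp* in place 43. With 4 arrays such a likeness is a description of 4 points and says nothing of shared control.

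Of 22 other matricellular genes, 17 were well above background on all 4 arrays. In the list 1 gene was up at 2 weeks, beside 1.71% of all genes, and 6 at 8 weeks, beside 2.32%. At 8 weeks 1 was down, beside 1.45% of all genes. The median log2 change over the 22 was 0.35 at 2 weeks and 0.32 at 8 weeks, and over the 17 measured ones 0.40 and 0.67. These lay below the medians of the members, which were chosen for their changes. *Fstl1*, which encodes a secreted follistatin-like glycoprotein, was up at both times, from 12.7 to 29.3 at 2 weeks and from 11.6 to 28.8 at 8 weeks, 2.30-fold and 2.47-fold. *Ccn2*, connective tissue growth factor, read 11.6 and 20.7 at 2 weeks and 11.1 and 49.1 at 8 weeks, which is 1.79-fold and 4.43-fold. The gene that was down was *Spock2*, a testican proteoglycan, with a log2 change of -1.05 at 8 weeks, named after its value was seen.

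None of 20 receptor genes of these proteins was called at either time. Of all genes, 1.71% were up and 0.841% down at 2 weeks, and 2.32% and 1.45% at 8 weeks. Among 20 genes no call is near those shares, and nothing is read from it. The median log2 change over the 20 was 0.30 at 2 weeks and 0.26 at 8 weeks, and over the 18 measured on all 4 arrays 0.33 and 0.38. *Cd36*, the fatty acid transporter that binds thrombospondin-1, changed by log2 0.03 at 2 weeks and -0.24 at 8 weeks. *Cd47*, the other thrombospondin-1 receptor, changed by -0.17 and 0.01. *Cd44*, a receptor of osteopontin and hyaluronan, changed by 0.31 and 0.38, and *Itgav*, the alpha-v integrin chain, by 0.62 and 0.06. Averaged over both times, the largest changes in the list were those of *Itga9*, an integrin chain that binds tenascin-C and osteopontin (0.69 and 0.91), and *Itgb3*, the partner of alpha-v (0.65 and 0.91).

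Among 24 matrix proteins, growth factors and enzymes that bind or process the members, 2 were up at 2 weeks and 4 at 8 weeks. The shares over all genes were 1.71% and 2.32%. None of the 24 was down, beside 0.841% and 1.45% of all genes. The median log2 change was 0.56 and 0.52, and over the 21 measured on all 4 arrays 0.62 and 0.63. *Timp1* was up at both times, from 0.872 to 3.16 at 2 weeks and from 0.774 to 4.34 at 8 weeks, 3.63-fold and 5.61-fold. *Fn1*, fibronectin, was the other gene up at 2 weeks, at 2.14-fold. *Tgfb2*, a latent growth factor, was 1.55-fold higher at 2 weeks and 2.97-fold at 8 weeks. *Col1a1*, a chain of collagen I, and *Adamts1*, a protease that cleaves proteoglycans, were the others up at 8 weeks, at 2.30-fold and 2.11-fold. Of these, *Fn1*, *Col1a1* and *Adamts1* were named after their values were seen. In a list of 8 genes of the unfolded protein response, which *Thbs4* protein is known to engage through *Atf6*, none was called. Among 8 genes that is near the shares over all genes, and nothing is read from it. The median log2 change of the 8 was -0.17 at 2 weeks and -0.16 at 8 weeks. *Hspa5*, the endoplasmic reticulum chaperone BiP, changed by -0.25 and -0.30, and *Sdf2l1*, its cofactor, by -0.37 and -0.47. *Atf6* itself changed by 0.21 and 0.25, and *Pdia4* by 0.37 and -0.21. The rest of the list, *Hsp90b1*, *Calr*, *Creld2* and *Manf*, had negative changes at both times. All but *Hspa5* and *Sdf2l1* were named after their values were seen.

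**Figure D4:**
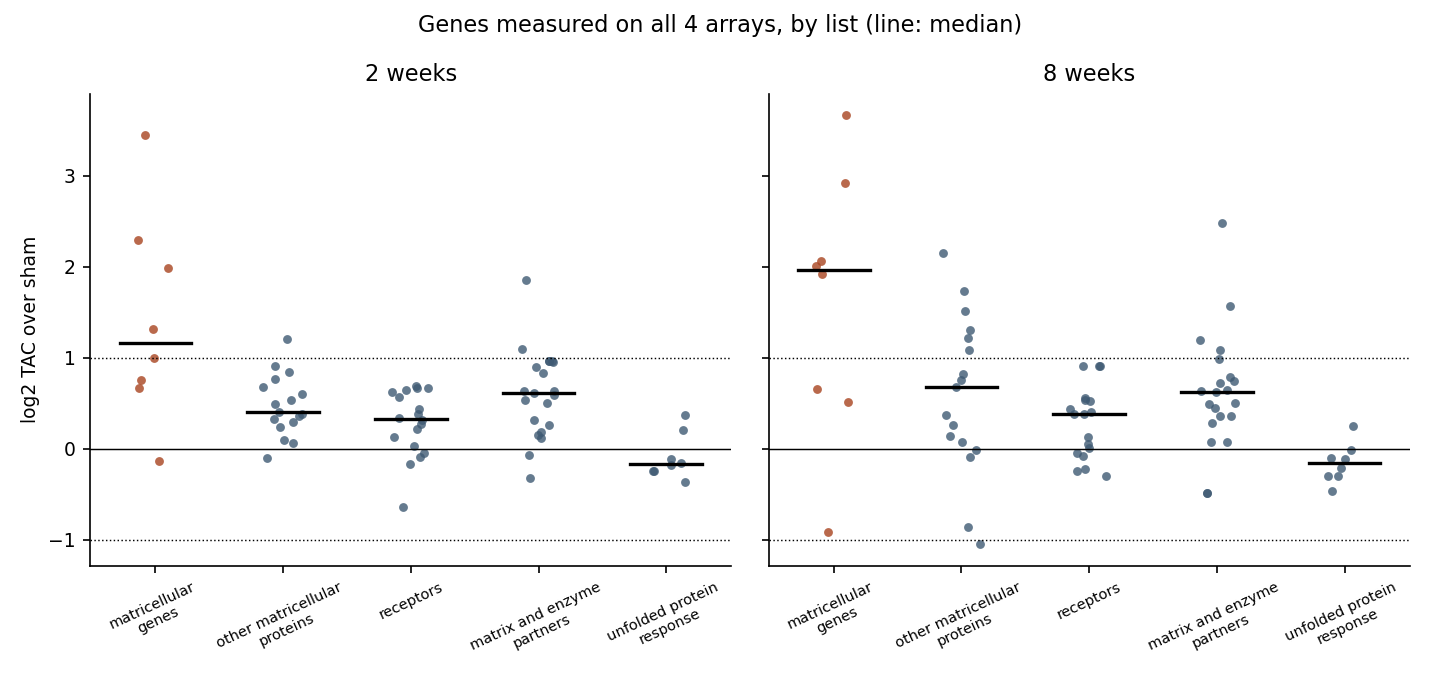
Log2 change after TAC (y axis) at 2 weeks (left) and 8 weeks (right) of the genes well above background on all 4 arrays, by list (x axis). Each point is 1 gene and the line its list's median over those genes, which at 8 weeks was 1.96 for the matricellular genes, 0.67 for other matricellular proteins, 0.38 for receptors, 0.63 for partners and -0.16 for the unfolded protein response.

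In whole-heart RNA, more cells of a type and more RNA per cell cannot be told apart. The 8 fibroblast markers were all measured and had a median log2 change of 0.25 at 2 weeks and 0.34 at 8 weeks. *Col1a1* was the only one called, up at 8 weeks, beside 2.32% of all genes. Their summed signal was 357 in sham and 412 in TAC at 2 weeks, and 375 and 477 at 8 weeks, most of it from *Dcn* and *Gsn*. The list did not move as one. *Col1a1*, *Col1a2* and *Lum* changed by log2 0.89 to 0.97 at 2 weeks and 0.94 to 1.20 at 8 weeks. *Pdgfra* changed by 0.31 and 0.40 and *Dcn* by 0.18 and 0.28. *Gsn* changed by -0.12 and 0.08, *Tcf21* by 0.07 and -0.55, and *Dpt* by -0.01 and -0.24. Of 5 markers of activated fibroblasts, *Meox1* was up at both times (2.20-fold and 3.72-fold), beside 0.555% of all genes. *Acta2* changed by log2 -0.01 and -0.40, and *Cthrc1* was not well above background on any array. Markers of macrophages, endothelial cells, smooth muscle and pericytes, and cardiomyocytes had no gene called at either time, near the small share over all genes. Their median log2 changes ranged from -0.18, for cardiomyocytes at 8 weeks, to 0.44, for macrophages at 2 weeks. Of 6 lymphocyte markers, 3 (*Cd3d*, *Cd2* and *Ms4a1*) were up at 2 weeks, beside 1.71% of all genes, and none at 8 weeks. The rises of *Cd3d* and *Ms4a1* were from sham signals not well above background. Set against the lowest signal well above background on that sham array, *Cd3d* was 1.31-fold higher, under the 2-fold threshold. The sham signal of *Ms4a1* was itself above that lowest signal, and its rise was 2.20-fold. The summed signal of the 6 lay between 5.09 and 6.59 on the 4 arrays. Most of it came from *Cd3e*, which was not called and read 5.65 in sham and 5.87 in TAC at 2 weeks, and 5.05 and 4.53 at 8 weeks. *Cd3d* read only 0.0379 in sham and 0.0788 in TAC at 2 weeks. The sum thus follows 1 probe and says little of the other markers.

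Because *Cilp*, *Comp* and *Thbs4* are also genes of cartilage and tendon, markers of those tissues were examined too. Of 8 cartilage markers, *Col2a1*, *Matn1*, *Matn3* and *Hapln1* were not well above background on any array. *Sox9*, a transcription factor of cartilage that valves and fibroblasts also express, was up at both times, 2.32-fold and 2.67-fold. Of all genes, 0.555% were up at both times. The summed signal of the cartilage list was 0.604 in sham and 0.741 in TAC at 2 weeks, and 0.637 and 0.696 at 8 weeks. Of 5 tendon markers, *Tnmd*, *Mkx* and *Kera* were not well above background on any array. *Scx*, a transcription factor of tendon and of cardiac fibroblasts, was 1.62-fold higher at 2 weeks and 2.08-fold at 8 weeks. The 8-week rise was a call, beside 2.32% of all genes. The tendon sum was 5.56 in sham and 9.02 in TAC at 2 weeks, and 5.67 and 11.6 at 8 weeks, nearly all of it from *Scx* (5.43, 8.83, 5.39 and 11.2 in the same order). Of 4 markers of atrial muscle, *Myl7* and *Sln* were down at 8 weeks, beside 1.45% of all genes. Neither was well above background in the TAC pool at that time. No exact fold can therefore be given. Set against the lowest signal well above background on that TAC array, the 2 genes were 3.64-fold and 2.55-fold lower. Some probes brighter than that signal were not well above background there, so these values are not strict bounds. The 8-week sham pool was itself higher than the 2-week sham pool, by log2 1.80 for *Myl7* and 0.63 for *Sln*. *Myl7* was not well above background in that 2-week sham pool. At 2 weeks neither gene was called, with log2 changes of 0.67 and 0.26. *Myl4* was called at neither time (log2 -0.01 and -0.52). *Nppa* was up at both times, beside 0.555% of all genes. The part of any of these cell types in the changes of the members was not tested.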

How the data were processed

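RNA pooled from several hearts per condition was hybridised by the authors to a SurePrint G3 Mouse GE 8x60K array annotated on mm9. The deposited files hold background-corrected signal intensity from Agilent Feature Extraction (10.7.3.1 in the file headers, 9.1 in the submitters' notes). The authors' series table holds signal intensity equal to the scanner intensity times 1 constant per array, between 3.52 and 4.35. Outlier spots were left out, spots of a probe averaged as log2, and each array's 75th percentile subtracted. A gene is its brightest probe. Of 32342 probes named by a RefSeq or Ensembl transcript, 29358 received a symbol. Members, gene lists and calls were chosen with earlier results of these data known. Named list genes were those called at both times, the 2 with the largest change averaged over both times, and *Cd36*, *Cd47*, *Cd44* and *Itgav*. Sham and TAC were compared within each time. With 1 array per condition, no difference between conditions could be tested, and the number of arrays limits precision. The calling rule was run on simulated signals with known changes. All planted changes lay beyond the 2-fold threshold and every probe counted as well above background. Changes near the threshold, dim probes and differences between pools were therefore not checked. Probe positions were not used. Alternatives used limma 3.58.1 (normexp, offset 50), pandas 2.3.3 and numpy 2.4.6.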

Additional observations from a re-analysis of the deposited data

Results flagged for a closer look

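*Angptl4*, a secreted inhibitor of lipoprotein lipase counted among the other matricellular genes, moved in opposite directions at the 2 times. Its log2 change was 0.60 at 2 weeks and -0.87 at 8 weeks, each beyond 2 SD of the spot ratio (SD 0.171). It read 15.3 in sham and 23.1 in TAC at 2 weeks, and 8.58 and 4.71 at 8 weeks, and the sham pools differed by log2 -0.83. The difference between the times was not tested, and the gene was named after its values were seen.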

How the results depend on the processing

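No paired analysis was possible because each condition was 1 array. Other settings were 14 scalings, filters and thresholds, and 2 choices made after seeing the data (the sham array of the other time, or the mean of both). None of the 176 changes they gave for the 8 measured genes turned its sign. Many of these could hardly differ from the main values. Most of the 8 genes have 1 probe, and several scalings shift all genes of an array by 1 constant. The count of members up at 2 weeks rose from 4 to 7 at a 1.5-fold threshold. It was 5 where *Comp* passed 2-fold (the deposited table, the percentile over detected probes, or outlier spots kept), and 5 at 2 weeks and 6 at 8 weeks with no filter on dim probes, which lets *Spp1* in. With normexp, the median log2 change fell to 0.73 at 2 weeks and 1.002 at 8 weeks, and the changes at 2 weeks to 2.26 for *Cilp* and 1.05 for *Thbs1*. The cause was not tested. The median at 8 weeks was 1.96 over measured probes alone, where *Tnc* and *Spp1* drop out. Against the sham array of the other time, the medians were 0.85 and 1.86, with 3 members up at 2 weeks, where *Thbs1* gave log2 0.84. Without scaling, the median of all genes at 8 weeks moved from -0.08 to 0.08. The arrays do not resolve *Tnc* and *Spp1* from background, and one pool a condition leaves the spread between mice unmeasured.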
